A study of Bos taurus with 2 samples.

Results

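ZIC2 and ZIC5 are 2 of the 17846 genes counted in single cells of day 25 bovine chimeric embryos. They were chosen by symbol, with their levels, their detection in the same cells and their correlated genes already known, so those values are given as a description with no test. The embryos were flushed at day 25 and carried bovine embryonic stem cells, so that host and donor-derived cells are mixed. They were dissociated with papain and DNase I, strained, sorted and profiled with the 10x Genomics 3' v3.1 droplet kit. The sources used here give neither the gate of the sort nor the number of embryos. Both samples, replicates 1 and 2, carry the same label and share every condition, so all comparisons are between cells within these suspensions. The labels do not tie the replicates to separate embryos, so p-values measure only the spread between these samples, which may be technical.

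ZIC genes encode C2H2 zinc finger transcription factors. In mouse and human, ZIC2 is needed for closure of the neural tube and for formation of the forebrain midline, ZIC5 acts in neural tube and neural crest formation, and ZIC2 is also known as a factor of formative and primed pluripotent cells. ZIC2 and ZIC5 are adjacent genes, as are ZIC1 and ZIC4. In a RefSeq gene table of the ARS-UCD2.0 assembly, both genes lay on bovine chromosome 12, with 0 protein-coding genes between them and with CLYBL beside ZIC5 and PCCA beside ZIC2.

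The libraries held 1973 and 2464 cells and 11182089 and 15427708 UMIs (unique molecular identifiers, tags that count captured RNA molecules), with medians of 4889 and 5601 UMIs per cell. Their gene totals differed by more than the counting noise of independent UMIs (chi-square 14.75 per degree of freedom over 15260 genes). UMIs come grouped in cells, and the part of sampling different cells in this excess was not tested. The libraries had 6 cell barcodes in common. The analyses of single cells used the 1412 and 1827 cells with at least 3000 UMIs. The ribosomal protein genes took under 10% of the UMIs in 67.6% and 59.1% of cells. A doublet caller marked 3 cells, which is too few for a working call, so doublets were hardly assessed.

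ZIC2 was the more abundant gene of the pair. It had 1707 UMIs, or 152.7 CPM (counts scaled to a common library total), in replicate 1 and 2145 UMIs, or 139.0 CPM, in replicate 2, a mean of 146 ± 9.63 CPM (SD, n = 2). ZIC5 had 623 UMIs (55.7 CPM) and 843 UMIs (54.6 CPM), a mean of 55.2 ± 0.758 CPM (SD, n = 2). ZIC2 ranked 1420 and 1469 among all genes by level, and ZIC5 ranked 4348 and 4182. The 3' kit captures each molecule by its end, so no length correction was made; the ratio of captured molecules was 2.74 and 2.54 ZIC2 UMIs for each ZIC5 UMI.

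Within the family, ZIC4 (93.2 and 90.6 CPM) lay between the pair and ZIC1 (32.7 and 28.1 CPM) below it. The order ZIC2, ZIC4, ZIC5, ZIC1 was the same in both replicates, with no overlap between neighbours.

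A ZIC2 UMI was seen in 45.8% of cells in each replicate (exact binomial 95% intervals 43.6 to 48.0% and 43.8 to 47.8%), and the deepest cells held 11 and 10 ZIC2 UMIs. A ZIC5 UMI was seen in 22.5% (20.6 to 24.4%) and 25.0% (23.3 to 26.7%) of cells, with at most 5 in a cell. The intervals cover counting error only. With every cell thinned to 3000 UMIs, the shares were 34.6% and 33.0% for ZIC2 and 14.8% and 14.4% for ZIC5. Among cells with 3000 or more UMIs, 273 (19.3%) and 393 (21.5%) held both, 483 and 596 held ZIC2 without ZIC5, 124 and 157 held ZIC5 without ZIC2, and 532 and 681 held neither. Few UMIs per cell mean that a cell without a UMI may still have contained the transcript.

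Among clusters found in both replicates, both genes were highest in cluster 10, high in neural progenitor-like cells and near 0 in mesenchyme-like, trophoblast-like and erythroid-like cells. Clustering was rebuilt without the ZIC genes, and 23 clusters resulted; a cluster was named only where it carried enough markers of a cell type. Neural progenitor-like cells (clusters 12 and 17, with 213 and 258 cells), marked by SOX1, PAX6 and HES5, had 236 and 237 CPM of ZIC2 and 105 and 91.3 CPM of ZIC5. Neuron-like cells (clusters 7, 8 and 9, with 291 and 341 cells), marked by DCX, STMN2 and ELAVL3, had 92.0 and 109 CPM of ZIC2 and 29.0 and 39.0 CPM of ZIC5. For each gene the neural progenitor-like values lay above the neuron-like values in both replicates. The large unnamed remainder (1372 and 1707 cells) stood between them, at 169 and 150 CPM of ZIC2 and 59.7 and 60.0 CPM of ZIC5.

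Mesenchyme-like cells (38 and 77 cells, marked by COL1A1 and DCN) held 2 and 1 ZIC2 UMIs and 0 ZIC5 UMIs in either replicate. Their thinned share of cells with ZIC2 was 1.69% and 0.394% (median 9636 and 11288 UMIs), against 1.10% and 1.24% in erythroid-like cells (median 25071 and 21761 UMIs), which are not known to use the gene. Whether these few UMIs came from free RNA in the suspension, from doublets or from the cells themselves was not tested. The trophoblast-like cells (15 and 13) held 1 ZIC2 UMI in each replicate and 0 ZIC5 UMIs.

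The highest levels were in cluster 10, led by the WNT agonist RSPO2 and by LMX1A, a homeobox factor of the roof plate. Its ZIC2 level was 291 and 302 CPM and its ZIC5 level 131 and 107 CPM. Cluster 12 followed for ZIC2 with 254 and 264 CPM, and its range did not overlap that of cluster 10. Leaving aside clusters found in 1 replicate, clusters 1, 0, 17, 5 and 3 came next and lay at means of 236 to 204 CPM of ZIC2, with ranges that overlapped their neighbours.

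The order for ZIC5 was not quite the same. Cluster 17, led by SFRP2 and PTN, reached 128 and 105 CPM of ZIC5, overlapping cluster 10, whereas clusters 1, 0 and 5 lay at 46.1 to 60.2 CPM. Clusters 6 and 2, marked by FOXA2 and by SHH, the ligand of the floor plate and of gut endoderm, were lower in ZIC2, with 106 and 99.7 CPM in cluster 6 and 157 and 99.2 CPM in cluster 2. In ZIC5, cluster 6 had 57.7 and 50.05 CPM, inside the range of clusters 1, 0 and 5. Cluster 2 had 40.5 and 34.2 CPM of ZIC5, below that range. Other clusters with FOXA2 varied, and cluster 5 was among the high ones for ZIC2. Cluster 16 had the highest FOXA2 level (496 ± 20.4 CPM, SD, n = 2). It had 152 and 149 CPM of ZIC2, inside the range of cluster 2, and 80.5 and 95.2 CPM of ZIC5. Cluster 11, also marked by FOXA2, had 142 ± 46.7 CPM of ZIC2 and 57.6 ± 12.4 CPM of ZIC5 (SD, n = 2). The lowest neuron-like cluster, cluster 9, led by the cell adhesion gene CNTN5 and by HAND2, a factor of autonomic neurons, had 34.7 and 36.0 CPM of ZIC2 and 12.8 and 17.1 CPM of ZIC5. Over the 22 clusters with cells in a replicate, the levels on the log2(CPM + 20) scale correlated with r of 0.883 and 0.954. That is a correlation over clusters of the same library, which share its depth and its free RNA. Clusters 15 and 22 came from 1 replicate each and were left unnamed. Cluster 15, of 63 cells in replicate 1, had 197 CPM of ZIC2 and 22.3 CPM of ZIC5, a ratio of 8.80. Cluster 22, of 67 cells in replicate 2, had 248 CPM of ZIC2 and 118 CPM of ZIC5, and it carried the mesenchyme markers COL1A1, COL1A2, COL3A1 and LUM.

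**Figure D1:**
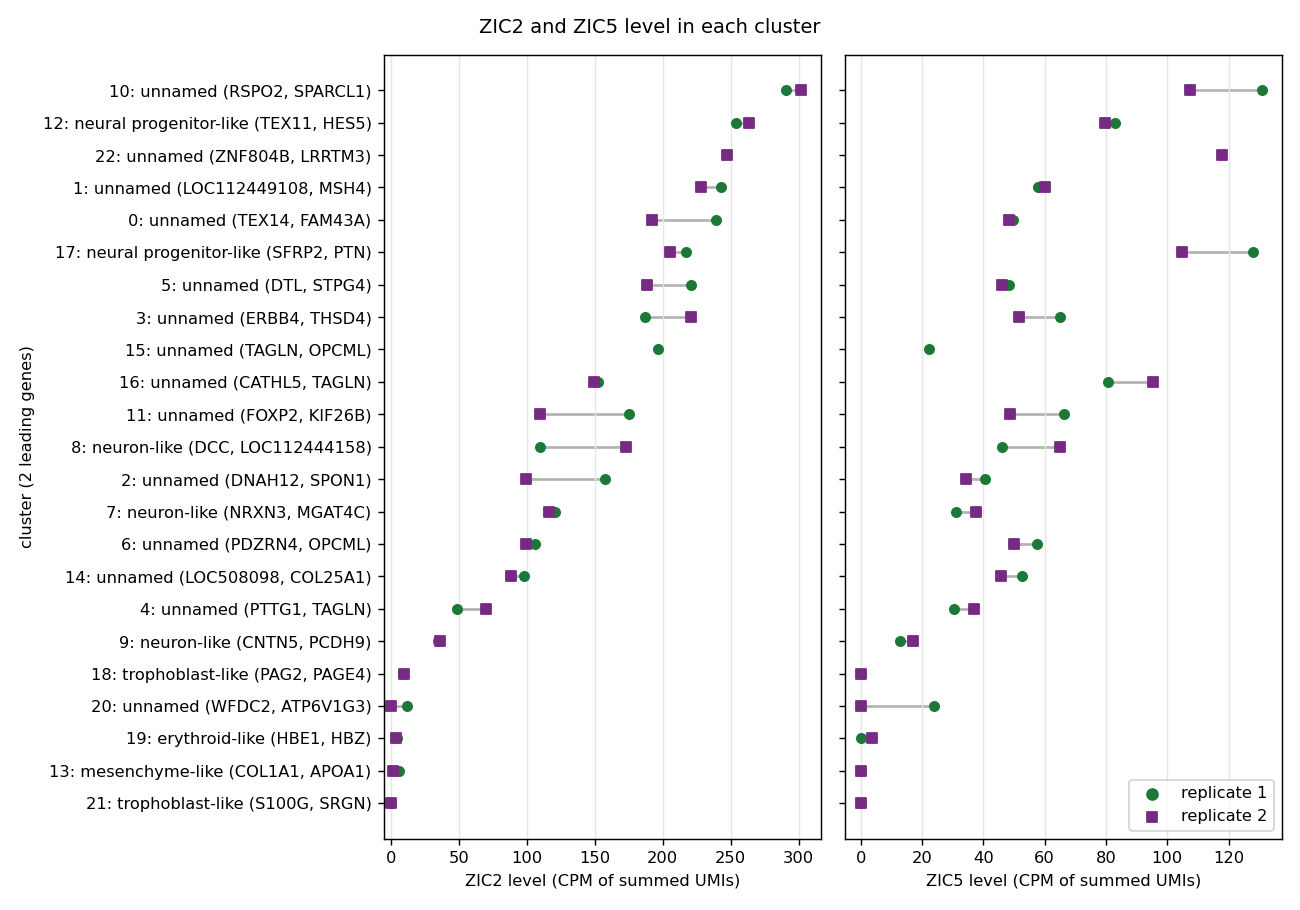
Level of ZIC2 (left) and ZIC5 (right) in CPM in each cluster, ordered by mean ZIC2 level, with a point for each replicate and a line joining them. Cluster 10 is highest for ZIC2 in both replicates, and mesenchyme-like, erythroid-like and trophoblast-like cells lie near 0 for both genes.

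Cells grouped by detection of single genes gave the same outline. SOX2 encodes the factor that maintains neural progenitors, and cells with a SOX2 UMI had 180 and 172 CPM of ZIC2 and 72.2 and 67.4 CPM of ZIC5, against 113 and 81.9 CPM of ZIC2 and 31.7 and 32.5 CPM of ZIC5 in cells without one. Cells with a UMI of the proliferation marker MKI67 had 182 and 174 CPM of ZIC2 and 67.4 and 60.6 CPM of ZIC5, against 142 and 128 CPM of ZIC2 and 51.6 and 52.7 CPM of ZIC5 in cells without one. Each of these differences held in both replicates without overlap. Cells with an LMX1A UMI had 253 and 293 CPM of ZIC2 and 126 and 85.7 CPM of ZIC5. Cells with a UMI of PAX3, a dorsal neural tube factor, had 211 and 231 CPM of ZIC2 and 68.9 and 80.2 CPM of ZIC5. Cells with an SHH UMI had 121 and 102 CPM of ZIC2 and 57.7 and 56.4 CPM of ZIC5. Dorsal-gene cells were thus above SHH cells for both genes in each replicate. Cells with a UMI of HOXB8, a trunk HOX gene, numbered only 21 and 28 and had 19.2 and 17.2 CPM of ZIC2 and 3.8 and 0 CPM of ZIC5. HOXB8 averaged 38.4 ± 9.47 CPM in mesenchyme-like cluster 13 and 53.6 ± 75.8 CPM in trophoblast-like cluster 21 (SD, n = 2), against at most 6.99 CPM in any other cluster. Cluster 21 had only 8 and 4 cells. The part of cell type in the low ZIC levels of HOXB8 cells was not tested.

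Cells with RSPO2 UMIs had 245 and 259 CPM of ZIC2 and 96.4 and 91.9 CPM of ZIC5. Cells with a GFP UMI had 157 and 148 CPM of ZIC2 and 58.3 and 59.7 CPM of ZIC5, against 129 and 94.5 CPM of ZIC2 and 42.7 and 28.4 CPM of ZIC5 in cells without one. Within SOX2-detected cells ZIC2 did not keep that order, at 176 and 171 CPM with GFP and 215 and 180 CPM without it. The labels tie GFP to no cell source.

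Both genes were found in the same cell more often than independent detection at equal depth would give. The expected number was summed over bins of cells with similar UMI totals. In replicate 1, 273 cells held both against 218.8 expected, a ratio of 1.25, and in replicate 2, 393 held both against 316.5 expected, a ratio of 1.24. The Mantel-Haenszel odds ratios over the bins were 2.27 and 2.505. Among 10365 genes paired with ZIC2 in this way, the median ratio was 1.02 and 1.03, the 95th percentile 1.14 and 1.14, and 43 and 40 genes lay above ZIC5. Paired with ZIC5, 276 and 133 genes lay above ZIC2.

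The excess was smaller with clusters taken into account. With the expected number taken within bins and clusters together, the ratio was 1.08 in each replicate and the odds ratio 1.58 and 1.58. Among SOX2-detected cells the ratio was 1.13 and 1.11 (odds ratios 1.80 and 1.85). Neural progenitor-like cells gave 1.02 and 1.06, while neuron-like cells gave 1.54 and 1.56, with 23 and 43 cells holding both. For these classes the bins were 2000 UMIs wide and the clusters of a class were pooled. Differences between those clusters therefore remain in these ratios. With ZIC5 thinned to 3000 UMIs per cell and ZIC2 left unthinned, the share with ZIC5 climbed with the number of ZIC2 UMIs. It was 9.87% and 9.39% at 0 ZIC2 UMIs, 17.7% and 16.5% at 1, 18.6% and 17.0% at 2, and 22.3% and 24.5% at 3 or more. These groups differed in depth, with medians of 6213 and 6720.5 UMIs at 0 ZIC2 UMIs and 7594.5 and 8957 at 3 or more. Leaving out the called doublets and shared barcodes kept the ratio at 1.25 and 1.24.

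The other neighbouring pair of the family behaved similarly. ZIC1 with ZIC4 had odds ratios of 2.58 and 2.60, and 1.47 and 1.46 within clusters. Of the non-neighbours, ZIC2 with ZIC4 had 2.46 and 2.67, and 1.36 and 1.40 within clusters. ZIC1 with ZIC2 had 2.26 and 2.00, ZIC4 with ZIC5 1.78 and 2.01, and ZIC1 with ZIC5 1.42 and 1.85. The adjacent genes were therefore not set apart from ZIC2 with ZIC4 by this measure over all cells; within clusters ZIC2 with ZIC5 had the larger value, with no test of the difference. CLYBL and PCCA, the flanking genes, had r of 0.0841 and 0.0604 (CLYBL) and 0.0938 and 0.109 (PCCA) with ZIC2, where the 95th percentile over genes was 0.108 and 0.102, so PCCA in replicate 2 lay above it.

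**Figure D2:**
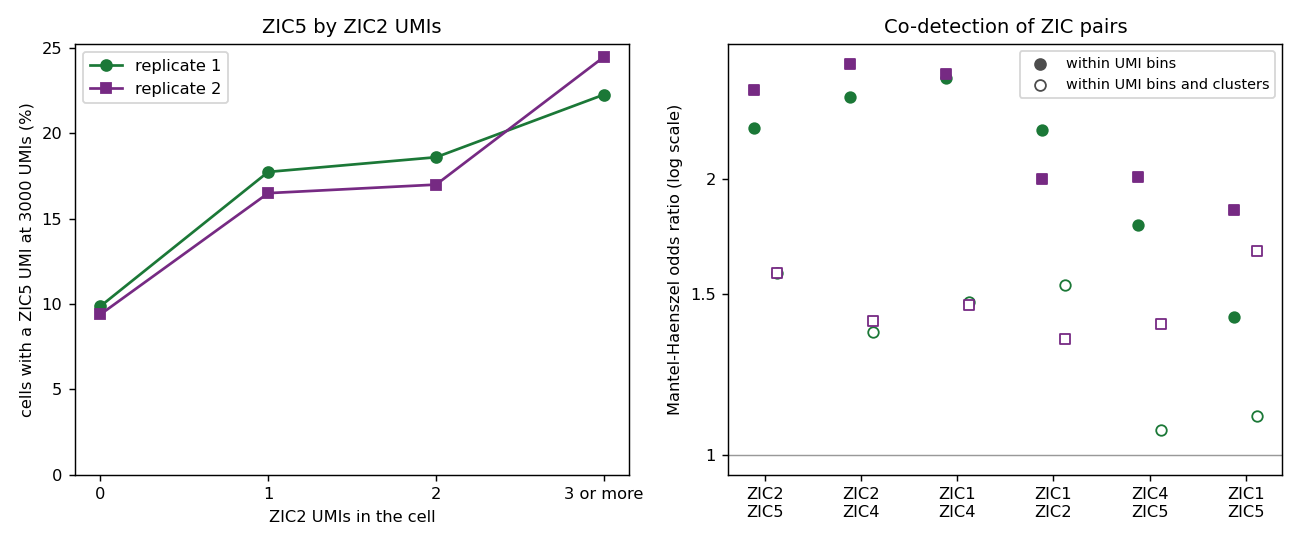
Left, share of cells with a ZIC5 UMI after ZIC5 alone was thinned to 3000 UMIs per cell, by the number of unthinned ZIC2 UMIs. Right, Mantel-Haenszel odds ratio of co-detection for pairs of ZIC genes on a log axis, within bins of UMIs (filled) and within bins and clusters (open). Green marks replicate 1 and purple replicate 2. The share of cells with ZIC5 is lowest at 0 ZIC2 UMIs and highest at 3 or more, and every pair has a lower odds ratio within clusters.

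Partner genes were ranked by Pearson's r of ln(1 + counts per 10000) over cells with 3000 or more UMIs, by the smaller value of the replicates. These cells share library, depth and cell type mix, and r is small throughout in these sparse counts. The 5th and 95th percentiles over 10365 genes were -0.0815 and 0.108 in replicate 1 and -0.0690 and 0.102 in replicate 2 for ZIC2. For ZIC5 they were -0.0534 and 0.0716, and -0.0544 and 0.0788. ZIC2 and ZIC5 had r of 0.190 and 0.205 with each other.

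The 10 genes closest to ZIC2 were ZIC4 (0.232 and 0.248), the orphan nuclear receptor genes NR2F1 (0.231 and 0.297) and NR2F2 (0.205 and 0.269), the eye and neural tube factor PAX6 (0.229 and 0.228), the ephrin receptor EPHA7, SOX2 (0.201 and 0.265), ZIC5, the cell-surface protein PRTG, the apical constriction factor SHROOM3 and the imprinted gene NNAT. For ZIC5 they were ID3 (0.205 and 0.264) and ID1 (0.193 and 0.250), which encode inhibitors of basic helix-loop-helix factors and are known targets of BMP signalling, SOX2 (0.212 and 0.202), NR2F2, ZIC2, NR2F1, the intermediate filament genes VIM and NES, the glucose transporter SLC2A3, and ZIC4 (0.132 and 0.132). NR2F1, NR2F2, SOX2 and ZIC4 were on both lists. The lowest r with ZIC2 belonged to RBMS3, S100A10, the matrix genes DCN (-0.159 and -0.170) and FBLN1, and NRP2. The lowest with ZIC5 belonged to TANC2, ANK2 (-0.1196 and -0.136), DLC1, the cadherin CDH8 and S100A10. Among SOX2-detected cells 5 of the 10 highest and 0 of the 5 lowest genes were shared with these lists, for each gene of the pair. There SOX2 had r of 0.0930 and 0.124 with ZIC2, and NES 0.0102 and 0.0822 with ZIC5.

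**Figure D3:**
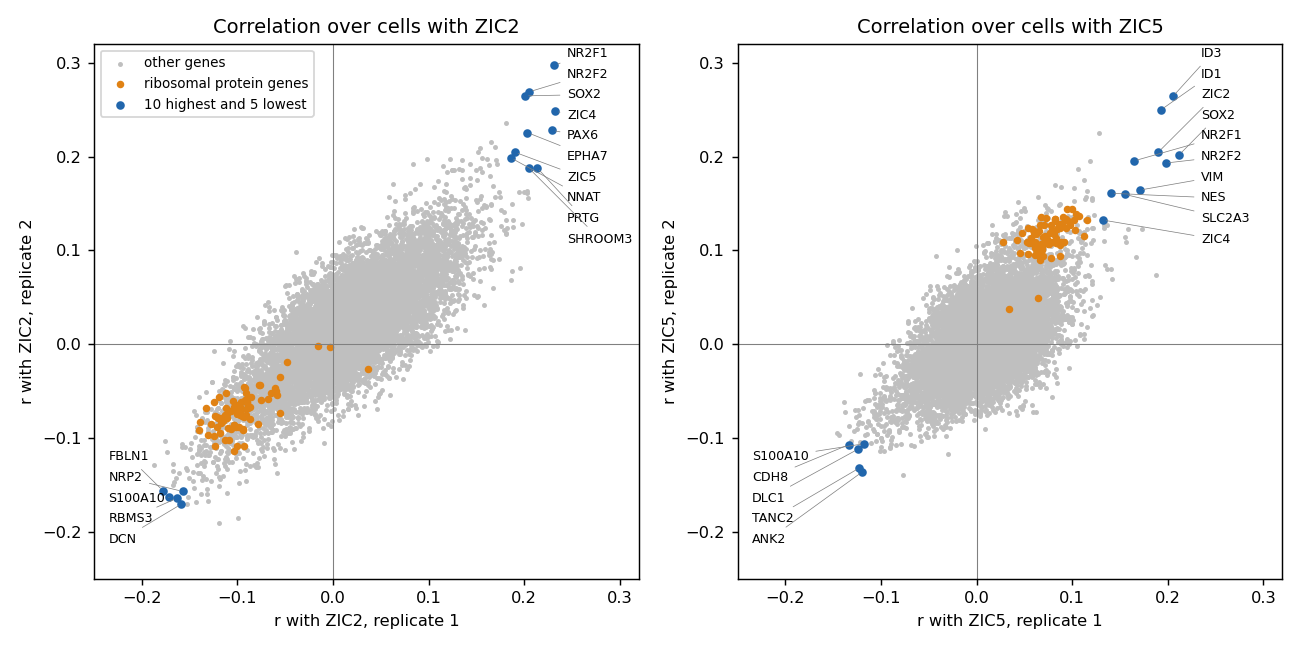
Pearson correlation over cells with ZIC2 (left) and ZIC5 (right), replicate 1 on the horizontal and replicate 2 on the vertical axis, for genes detected in 5% or more of cells; orange marks ribosomal protein genes and blue the 10 highest and 5 lowest genes. Ribosomal protein genes lie mostly at negative r with ZIC2 and wholly at positive r with ZIC5.

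The genes parted in their relation to ribosomal protein genes. Of 78 such genes, 77 had a negative r with ZIC2 in replicate 1 and 78 in replicate 2 (medians -0.0995 and -0.0728), whereas all 78 had a positive r with ZIC5 in each replicate (medians 0.0724 and 0.113). Of the 50 genes with the most negative difference of r (ZIC2 minus ZIC5), 42 were ribosomal protein genes. With ribosomal and mitochondrial genes left out of the scaling, the medians with ZIC2 were -0.0610 and -0.0187, and 3 and 12 of the 78 were positive; those with ZIC5 were 0.109 and 0.154. Among SOX2-detected cells the medians were -0.118 and -0.0911 with ZIC2 and 0.0818 and 0.153 with ZIC5. The median with ZIC2 differed between sets of cells split by ribosomal share. Among cells with a share under 10% it was 0.0069 and 0.0306, with 46 and 61 of the 78 genes positive. With a share of 10% or more it was -0.0796 and -0.0084, with 6 and 33 positive. Signs were thus mixed in both sets, and the source of the difference was not tested. The median with ZIC5 was positive in each of these sets, at 0.0632 and 0.0848 under 10% and 0.0323 and 0.0250 at 10% or more.

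The ratio of ZIC2 to ZIC5 molecules followed the ribosomal share. Cells with a share under 10% had 3.38 and 3.43 ZIC2 UMIs per ZIC5 UMI, and cells at 10% or more had 2.05 and 2.02. Among SOX2-detected cells the ratios were 3.27 and 3.76 under 10% and 1.87 and 2.03 at 10% or more. From the lowest to the highest bin of ribosomal share the ZIC2 level of SOX2-detected cells was 222 and 209 CPM under 2.5%, and 128 and 144 CPM at 20% or more, while the ZIC5 level was 60.6 and 42.4 CPM, and 76.6 and 73.0 CPM. Of 15 clusters with both replicates and a mean of at least 20 CPM of ZIC5, the 9 with a median ribosomal share under 10% had ratios of 2.47 to 4.40, and the 6 at 10% or more had 1.72 to 2.49. The ranges overlapped only between 2.47 and 2.49. The ribosomal share also moves with cluster, so its part and that of cell type were not tested apart. Other genes whose r differed strongly, chosen after their values were seen, included DENND5A (0.140 and 0.109 with ZIC2, -0.0347 and -0.0687 with ZIC5), TBC1D9 and WNK1 on the ZIC2 side. On the ZIC5 side they included the translation elongation factor gene EEF1B2 (-0.140 and -0.108 with ZIC2, 0.0659 and 0.0824 with ZIC5), ZC3H10, BTF3 and PPIB.

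**Figure D4:**
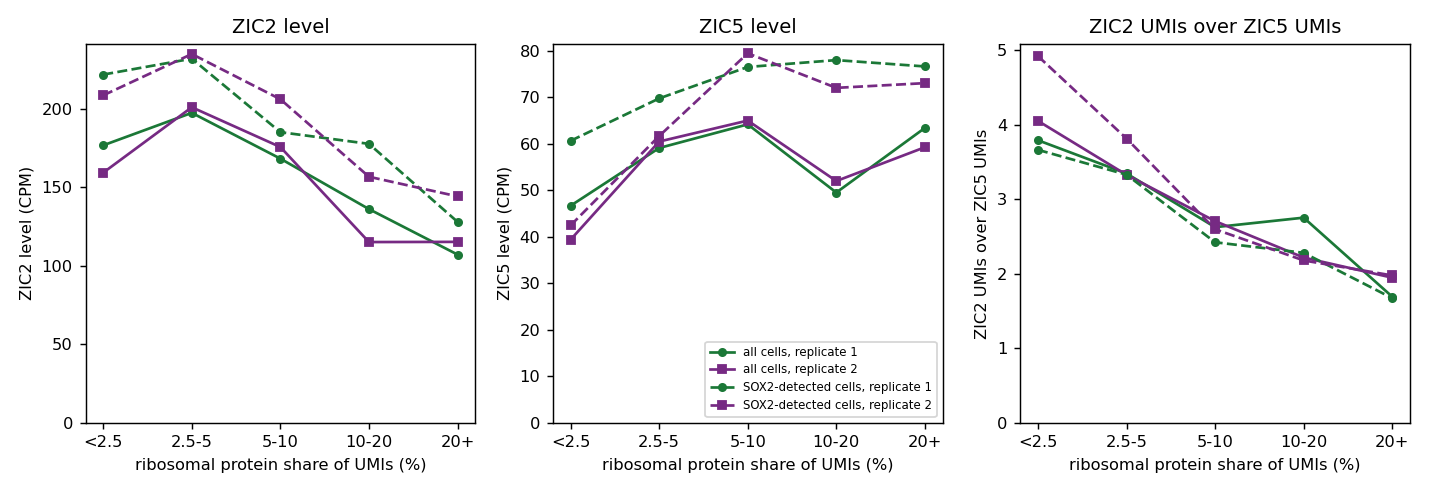
ZIC2 level, ZIC5 level (both in CPM) and the ratio of ZIC2 to ZIC5 UMIs by the ribosomal protein share of a cell's UMIs, for all cells (solid) and SOX2-detected cells (dashed), green for replicate 1 and purple for replicate 2. The ratio is highest in cells with a share under 2.5% and lowest at 20% or more in every line.

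The genes that go with the pair were then described by splitting cells on detection. ZIC-detected cells (a UMI of ZIC2 or ZIC5) were compared with ZIC-undetected cells, with equal numbers of cells in each bin of UMIs per cell, 532 a side in replicate 1 and 660 in replicate 2. UMIs were summed per replicate and side, and ZIC2 and ZIC5 took no part in the table. The split reads the same association in the same cells as the correlations above, so its calls mark the size of a difference and give no separate support to any gene's relation with the pair. edgeR's quasi-likelihood test with replicate as a block called 3228 of 13024 genes (24.8%) at an adjusted p under 0.05, of which 1145 (8.79%) were higher and 2083 (16.0%) lower in ZIC-detected cells. DESeq2 called 805 genes. Each gene had 1 residual degree of freedom, so the calls rest mostly on the spread pooled over genes.

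The sides differed in cell type. Mesenchyme-like cells were 1 and 0 of the ZIC-detected cells and 29 and 60 of the ZIC-undetected cells. The trophoblast-like class held 0 and 0 ZIC-detected cells, against 9 and 7 ZIC-undetected cells, and the erythroid-like class 1 and 2, against 9 and 18. Neural progenitor-like cells made up 12.8% and 14.2% of the ZIC-detected side and 4.51% and 5.00% of the ZIC-undetected side, and neuron-like cells 10.5% and 9.24% against 23.7% and 21.2%. Without the mesenchyme-like, trophoblast-like and erythroid-like clusters, an alternative added after seeing the data, 1913 of 12635 genes (15.1%) were called, 641 (5.07%) higher and 1272 (10.1%) lower.

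Of called genes with at least 50 CPM in the mean of a side, the 8 largest decreases were in genes of trophoblast-like clusters. A single such cluster held 93.6 to 98.3% of the UMIs of each. They were the pregnancy-associated glycoprotein genes PAG2 and PAG8, the prolactin-related genes PRP1 and PRP4, and PAGE4, LOC617406, S100G and SRGN. Without the trophoblast-like and the other clusters named above, S100G (log2 -0.53) and SRGN (-0.38) no longer passed. No value of the other genes is given for that fit, where 2 trophoblast markers were tested and 0 fell. PAG2 had 0.769 and 0.408 CPM in ZIC-detected cells, against 311 and 106 CPM in ZIC-undetected cells. Its UMIs came from 3 and 2 ZIC-detected cells and 12 and 14 ZIC-undetected cells, so these decreases rest on few cells; without the replicate block PAG2, PRP1, PRP4, LOC617406 and SRGN did not pass. Family members so alike may share reads, and their split between genes is uncertain. Of the mesenchyme markers, 6 of 9 tested fell and 1, PRRX1, rose, and their summed level was 213 and 312 CPM in ZIC-detected cells, against 3481 and 5718 CPM in ZIC-undetected cells. Of the trophoblast markers 7 of 9 fell, with a median log2 of -6.63 over the 9. Their sums, which include the 2 uncalled markers, were 452 and 429 CPM in ZIC-detected cells, against 1365 and 704 CPM. TKDP1 was at 0 on the ZIC-detected side of replicate 1 and CSH2 on that of replicate 2. Of the erythroid markers 4 of 8 fell, with sums of 3294 and 5608 CPM, against 27050 and 46697 CPM in ZIC-undetected cells, and HBA and HBA1 were at 0 in ZIC-detected cells, HBA also in ZIC-undetected cells of replicate 1. The part of these cells in the calls below was measured only by leaving their clusters out.

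Of the called genes with at least 50 CPM in the mean of a side, HES5, a Notch target of neural progenitors, had the largest increase. It had 116 and 139 CPM in ZIC-detected cells, against 38.9 and 47.9 CPM in ZIC-undetected cells (log2 fold change 1.55, SE 0.10). The secreted WNT modulator SFRP2 followed (log2 1.34), then ZIC4 (1.24), the phospholipase D family gene PLD5 (1.22), PAX3 (1.20), the dorsal ligand WNT3A (1.18), the mitotic spindle gene ASPM (1.09) and PAX6 (0.98). A rise in both replicates was a condition for naming these 8, and the sides did not overlap. All 8 also passed in DESeq2, and all 8 passed without the mesenchyme-like, trophoblast-like and erythroid-like clusters, where HES5 had a log2 of 1.38 and PAX6 of 0.80.

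Of ZIC genes outside the pair, ZIC4 and ZIC1 rose. ZIC4 had 106 and 115 CPM in ZIC-detected cells, against 47.5 and 46.0 CPM in ZIC-undetected cells. ZIC1 had 36.6 and 31.4 CPM, against 17.2 and 16.8 CPM (log2 0.99, SE 0.16).

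The counts of list and marker genes in this comparison stand beside 8.79% of all genes that rose and 16.0% that fell. Neural progenitor genes rose widely. Of 11 tested, 9 rose and 0 fell, with a median log2 of 0.64, against 0.0037 over all genes tested. SOX2 had 288 and 322 CPM in ZIC-detected cells, against 158 and 152 CPM in ZIC-undetected cells (log2 0.98), and SOX1 had a log2 of 0.97. Of 20 cell cycle genes 17 rose and 0 fell (median 0.52), led by ASPM, CDK1 (0.82), CENPF (0.74) and TOP2A (0.67). In the fit without the mesenchyme-like, trophoblast-like and erythroid-like clusters, 7 of 11 progenitor genes and 16 of 20 cell cycle genes rose, against 5.07% of all genes in that fit.

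Of dorsal neural tube genes, 4 of 9 tested rose and 2 fell. LMX1A rose most, with 29.2 and 37.7 CPM in ZIC-detected cells, against 4.296 and 5.11 CPM in ZIC-undetected cells (log2 2.83), followed by PAX3, WNT3A and MSX1 (0.72). The BMP ligand genes BMP4 (log2 -3.59) and BMP7 (-1.64) fell; without the clusters named above 4 dorsal genes rose and 0 fell. Of ventral genes 1 of 5 rose, FOXA2, with 240 and 232 CPM, against 124 and 142 CPM in ZIC-undetected cells (log2 0.83). Of intermediate neural tube genes 3 of 4 rose (PAX6, IRX3 and IRX5).

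Of WNT pathway genes 8 of 18 rose and 1 fell. The R-spondin ligand genes RSPO2 (log2 2.23), RSPO1 (1.77) and RSPO3 (0.74) rose with SFRP2, the WNT target AXIN2 (0.63) and the receptor-removing ligase gene ZNRF3 (0.58), and the WNT-binding SFRP1 fell (-0.83). Among cells with a ribosomal share under 10% SFRP1 had a log2 of 0.033, and at 10% or more RSPO2 no longer passed (1.88, edgeR adjusted p = 0.17). Of Hedgehog pathway genes 5 of 14 rose and 0 fell: the ligand-binding HHIP (0.61), PTCH1 (0.24), CDON (0.48) and BOC (0.46), and the transducer SMO (0.51).

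Of forebrain genes 2 of 5 rose, OTX2 (log2 1.69) and SIX6 (1.43). Of 9 midbrain and hindbrain genes tested 1 rose, where 8.79% of all genes rose. The 2 that fell were PAX5 (log2 -2.13) and HOXB3 (log2 -1.36), where 16.0% of all genes fell. In single replicates the log2 fold change of PAX5 was -1.08 without replicate 2 and -2.15 without replicate 1. All 6 trunk HOX genes tested fell, from low levels: HOXB9 had 0 UMIs on the ZIC-detected side of both replicates, against 4.296 and 5.54 CPM in ZIC-undetected cells. In the fit without mesenchyme-like, trophoblast-like and erythroid-like clusters 1 trunk HOX gene passed the filter on low counts, and it fell.

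Of neural crest genes 4 of 7 fell and 0 rose, among them ETS1 (log2 -1.65) and SNAI2 (-1.41). In the nascent neuron list DLL3 (1.33) and HES6 (0.78) rose and BTG2 (-0.96) fell, of 4 tested; HES6 and BTG2 did not keep their sign among cells with a ribosomal share under 10%. Of the neuron markers 7 of 8 fell, among them INA (log2 -1.40) and STMN2 (-0.73). Of formative and primed pluripotency genes OTX2 and LIN28A (0.91) rose and DNMT3A fell, of 6 tested. Ribosomal protein genes fell in 74 of 78 (median log2 -0.33), beside a median ribosomal share of 3.69% and 6.76% of UMIs in ZIC-detected cells, against 4.58% and 10.0% in ZIC-undetected cells. Without the mesenchyme-like, trophoblast-like and erythroid-like clusters 44 of 78 fell, against 10.1% of all genes in that fit.

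Restricting both sides to SOX2-detected cells asked what goes with the pair inside that population. There were 235 and 318 cells a side, and 430 of 11481 genes (3.75%) were called, 118 (1.03%) higher and 312 (2.72%) lower in ZIC-detected cells. DESeq2 called 28, and without the mesenchyme-like, trophoblast-like and erythroid-like clusters edgeR called 241 of 11427 (2.11%), 54 (0.473%) higher and 187 (1.64%) lower. The median ribosomal share was 4.55% and 5.67% in ZIC-detected cells, against 5.96% and 8.75% in ZIC-undetected cells, and neural progenitor-like cells were 28 and 49 of the ZIC-detected cells, against 18 and 24 of the ZIC-undetected cells.

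The 8 largest increases were again taken among called genes with at least 50 CPM in the mean of a side. Of these genes, 6 had more UMIs in cluster 10 than in any other cluster. It held from 22.0% (WNT3A) to 80.2% (RSPO2) of their UMIs. For HES5 the leading cluster was 12 and for SFRP2 it was 17. RSPO2 had 60.6 and 54.4 CPM in ZIC-detected cells, against 3.78 and 16.9 CPM in ZIC-undetected cells (log2 2.37, SE 0.38), from 8 and 14 cells with a UMI against 2 and 4. RSPO3 had 188 and 192 CPM, against 68.0 and 58.3 CPM in ZIC-undetected cells (log2 1.60), in 53 and 77 cells against 39 and 42. GLIS3 (1.55), ADAMTS3 (1.28), HES5 (1.13), CLSTN2 (1.07), SFRP2 (1.05) and WNT3A (0.95) completed the 8. Of these, RSPO3 and HES5 also passed in DESeq2; RSPO2 had an adjusted p of 0.58 there. With edgeR, RSPO3 was lost among cells with a ribosomal share under 10% (log2 0.56, adjusted p = 0.31), and RSPO2 and HES5 among those at 10% or more (adjusted p = 0.72 and 0.054).

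The list counts among SOX2-detected cells stand beside 1.03% of all genes that rose and 2.72% that fell. Of dorsal genes 4 of 7 rose and 0 fell: LMX1A (log2 3.20), WNT3A, MSX1 (0.85) and PAX3 (0.77). Of 5 ventral genes 0 passed with edgeR; FOXA2 had 282 and 250 CPM in ZIC-detected cells, against 210 and 232 CPM (log2 0.26, edgeR adjusted p = 0.097). The difference between the dorsal and ventral lists was not tested. ZIC4 rose (124 and 148 CPM, against 78.1 and 73.3 CPM in ZIC-undetected cells, log2 0.86), and ZIC1 did not pass (39.8 and 37.8 CPM, against 27.1 and 24.4 CPM). Of WNT genes 6 of 17 rose, the 3 R-spondin genes, SFRP2, AXIN2 (0.84) and ZNRF3 (0.32), and SFRP1 fell. GLI3, a Hedgehog effector, was the 1 of 13 Hedgehog genes to rise (log2 0.33). Without the mesenchyme-like, trophoblast-like and erythroid-like clusters 4 WNT genes and 0 Hedgehog genes rose. PAX6, HES5 and NR2F1 were the 3 of 11 progenitor genes that rose, and 6 of 20 cell cycle genes rose. OTX2 rose (1.49) in the forebrain and pluripotency lists. Of 7 midbrain and hindbrain genes tested 1 rose and 0 fell. Of ribosomal protein genes 1 of 78 fell.

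The decreases included neuronal genes. Neuron-like cells were 9 and 15 of the ZIC-detected cells, against 22 and 31 of the ZIC-undetected cells. Their part in the decreases was not tested. PENK, which encodes the opioid precursor proenkephalin, had 1.22 and 1.84 CPM in ZIC-detected cells, against 273 and 128 CPM in ZIC-undetected cells (log2 -6.85, SE 0.25), and its UMIs came from 2 and 3 ZIC-detected cells and 7 and 12 ZIC-undetected cells, with up to 155 in a cell. The carbonic anhydrase-related gene CA10 (log2 -3.67) and the secretogranin gene SCG2 (-3.15) also fell, and 5 of 8 neuron markers fell, among them INA (-1.03) and DCX (-0.69). PENK, CA10 and SCG2 passed in DESeq2 and without the mesenchyme-like, trophoblast-like and erythroid-like clusters. Neuron-like cluster 7 held 95.7% of PENK UMIs and 72.9% of SCG2 UMIs. For CA10 the leading cluster was unnamed cluster 14, with 40.5%. COL1A1 (log2 -2.34) and COL1A2 (-1.94) fell beside 0 and 0 mesenchyme-like cells on the ZIC-detected side, against 2 and 2 on the ZIC-undetected side. The summed mesenchyme markers were 197 and 294 CPM in ZIC-detected cells, against 807 and 795 CPM in ZIC-undetected cells. Without the mesenchyme-like, trophoblast-like and erythroid-like clusters COL1A1 (log2 -0.033) and COL1A2 (-0.43) no longer passed. TTR (log2 -2.22), RYR3 and CNTN5 completed the 8 lowest of at least 50 CPM. Of the 227 TTR UMIs in ZIC-undetected cells, 157 lay in a single cell. TTR too had more of its UMIs in cluster 10 (41.9%) than in any other cluster. None of these 3 passed in DESeq2.

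**Figure D5:**
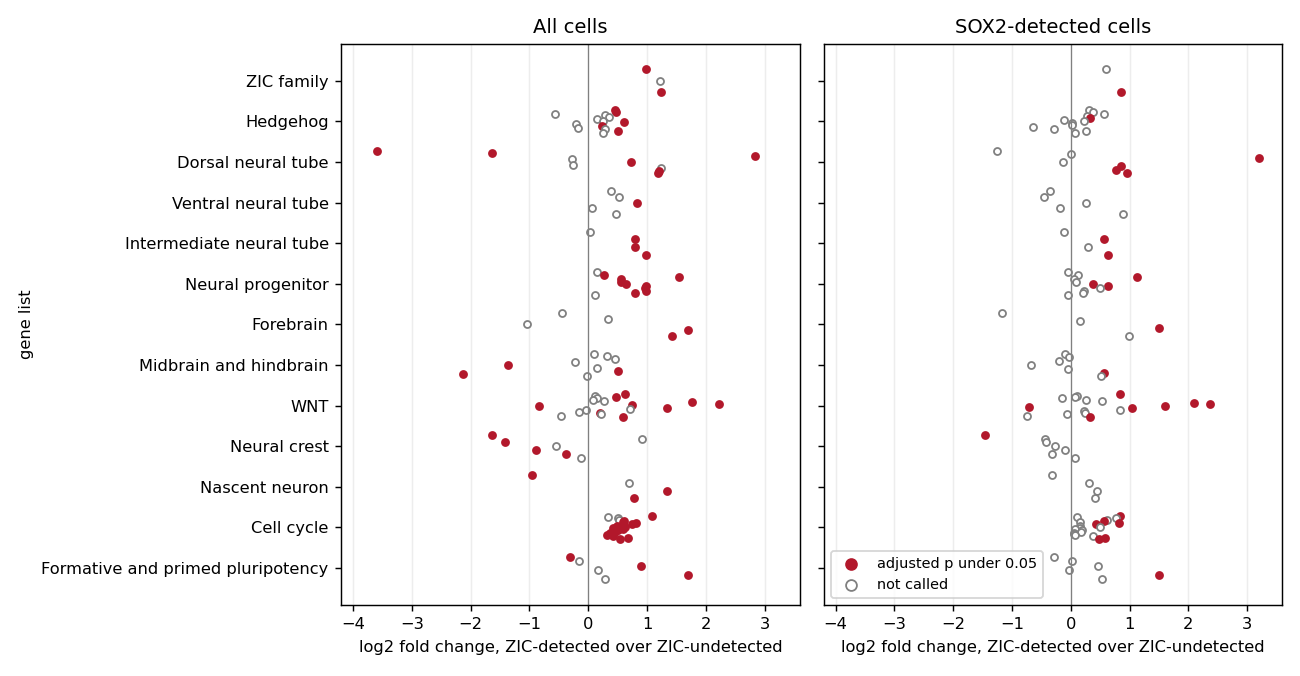
edgeR log2 fold change, ZIC-detected over ZIC-undetected, of each gene tested in the lists, for all cells (left) and SOX2-detected cells (right); filled points passed an adjusted p of 0.05, and lists with no gene tested among SOX2-detected cells are left out. All 20 cell cycle genes lie above 0 in both panels, and 4 dorsal neural tube genes are filled above 0 in each.

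Cells with ZIC2 and no ZIC5 were finally set against cells with ZIC5 and no ZIC2, 124 and 157 cells a side. Of 10303 genes 1 (0.00971%) passed in edgeR, 993 had an unadjusted p under 0.05, and DESeq2 called 0, with 127 at an unadjusted p under 0.05. The gene was MDGA2, which encodes a synaptic membrane protein, with 270 and 77.6 CPM in ZIC2-only cells, against 59.5 and 32.2 CPM in ZIC5-only cells (log2 1.83, SE 0.21, edgeR adjusted p = 0.012; 0.30 in DESeq2). It was seen in 31 and 22 ZIC2-only cells and 18 and 19 ZIC5-only cells, and up to 74 of its UMIs lay in a single ZIC2-only cell. Neuron-like cluster 7 held 63.5% of all MDGA2 UMIs, and neuron-like cells were 21 and 11 of the ZIC2-only cells, against 12 and 14 of the ZIC5-only cells; their part in this call was not tested. The count depended on the setting, with 298 genes called when all cells were used without matching depth and 199 without the filter on low counts. The median ribosomal share was 4.06% and 7.98% in ZIC2-only cells, against 6.15% and 15.3% in ZIC5-only cells; its part in these counts was not tested.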

How the data were processed

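Raw UMI counts per gene and cell were deposited by the authors in 1 table, with no normalization. The tools named in the submitters' processing notes are Cell Ranger, Seurat 4.3.0 and R 4.1.2, with the bosTau9 build. Which annotation, strand setting and Cell Ranger version made the counts is not stated. The deposited cells had at most 3999 detected genes and 4.98% mitochondrial UMIs, so cells had been filtered before deposit. Columns were matched to samples by the sample number in their names. The members and gene lists were chosen with earlier results of these data known. Of the 17846 symbols 17337 were found in a RefSeq table of another assembly (ARS-UCD2.0), used for names and gene order; no sequence was printed.

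Levels are CPM of summed UMIs, and shares were compared after exact thinning of each cell to 3000 UMIs. Co-detection was set against independent detection within bins of 500 UMIs. The 4359 cells with 500 or more detected genes were clustered (scanpy 1.11.5, Leiden resolution 1, 2000 variable genes, 30 components, 15 neighbours) without ZIC genes, list genes, markers, mitochondrial and ribosomal protein genes and GFP. A name needed 3 markers in 25% of cells at 2-fold over the other clusters, with more than for other cell types. No name was given where 1 replicate held over 90% of a cluster or its leading genes spoke for another class. No doublets were removed.

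Sums per replicate and side were tested with edgeR 4.0.16 in R 4.3.3 (TMM, filterByExpr, quasi-likelihood test, Benjamini-Hochberg over all genes tested), with replicate as a block. The replicate pairs the sums by design, since both sides come from 1 suspension. SE is the size of the log2 fold change over the root of the F statistic. Named genes were, of the called with at least 50 CPM in the mean of a side and the same direction in each replicate, the 8 highest and 8 lowest fold changes (5 for ZIC2-only against ZIC5-only cells), and the 10 highest and 5 lowest r. Lists name up to 4 called members by fold change; a few more are named where the count is small, and these, with the cells grouped by single genes, were chosen after values were seen. The fit was tested on simulated data. Alternatives included DESeq2 1.42.0. Some genes are not reported here.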

Additional observations from a re-analysis of the deposited data

How the results depend on the processing

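Depth limits detection of the pair: the shares were 25.1% (ZIC2) and 10.0% (ZIC5) when thinned to 2000 UMIs, 44.5% and 22.9% at 5000, and 45.8% and 23.7% unthinned. ZIC2 averaged 164 CPM as a mean over cells, 117 CPM in cells with a ribosomal share of 10% or more and 179 CPM under 10%; ZIC5 averaged 59.2, 57.4 and 52.5 CPM. Leaving out a replicate gave 139 to 153 CPM for ZIC2 and 54.6 to 55.7 CPM for ZIC5, thinned shares of 33.0 to 34.6% and 14.4 to 14.8%, a co-detection ratio of 1.24 to 1.25 and r of 0.190 to 0.205. In neural progenitor-like cells it gave 236 to 237 CPM of ZIC2 and 91.3 to 105 CPM of ZIC5, and in neuron-like cells 92.0 to 109 and 29.0 to 39.0 CPM. No cluster was named neural progenitor-like at Leiden resolutions 0.5 and 2.

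The mean co-detection ratio was 1.25 in all cells, 1.21 at 5000 or more UMIs, 1.08 within clusters, 1.12 in SOX2-detected cells, 1.29 and 1.17 at a ribosomal share of 10% or more and under 10%, and 1.34 after thinning. The mean r was 0.171 at 1000 or more UMIs, 0.209 at 5000 or more, 0.211 without ribosomal and mitochondrial genes, 0.136 in SOX2-detected cells and 0.292 at a ribosomal share of 10% or more.

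ZIC-detected against ZIC-undetected cells gave 805 calls with DESeq2, 1061 under a 10% ribosomal share and 1913 genes without the mesenchyme-like, trophoblast-like and erythroid-like clusters. Among SOX2-detected cells these were 28, 95 and 241, and 133 at 10% or more. For ZIC2-only against ZIC5-only cells there were 4 with RLE scaling, 0 with DESeq2, 199 with no filter, 298 with all cells, 62 at 5000 or more UMIs, 0 and 7 at a ribosomal share of 10% or more and under 10%, 4 without doublets and single-replicate clusters, and 4 without the mesenchyme-like, trophoblast-like and erythroid-like clusters. Without the replicate block, which pairs the sides of each suspension, 1692, 207 and 0 genes were called. The higher share of calls was 35.5% with edgeR and 10.3% with DESeq2 over all cells, and 27.4% and 14.3% among SOX2-detected cells.

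Over all cells 7 genes changed sign. At a ribosomal share under 10% BTG2 had a log2 of 0.066, HES6 -0.19 and SFRP1 0.033; at 10% or more HES1 had -0.11, TCF7L2 -0.11 and TFAP2B 0.12. TCF7L1, not called in the report's fit (-0.16), had 0.34 without the mesenchyme-like, trophoblast-like and erythroid-like clusters. The cause was not tested. Leaving out a replicate leaves no residual spread for fold changes, so those gave values and no test. The alternatives that leave out clusters, called doublets or shared barcodes were chosen after seeing the data.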
